A study of Mus musculus with 4 samples.

Results

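Intronic distal regions are stretches of accessible chromatin that lie inside a gene, away from any exon and away from any transcript start. They were located here in 4 ATAC-seq libraries of mouse limb at stage E11.5, each with 1 deposited list of peak summits. In ATAC-seq, the Tn5 transposase inserts sequencing adaptors into DNA that is not tightly packed. Each summit was extended by 250 bp on both sides, and overlapping intervals of the 4 lists were merged. A merged region was kept when its summit nearest to a GENCODE M1 transcript start lay more than 10 kb and at most 100 kb from it, inside the body of a protein-coding gene, and when the region overlapped no exon. The choice used positions alone, with no peak score. It kept 12454 of 74669 merged regions (16.7%). For comparison, 16414 merged regions lay at the same distances from a start but outside gene bodies and are called intergenic distal.

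Maenli, the long non-coding RNA locus studied here, bears on how En1 is controlled in the developing limb. One genotype, labelled as a mutant with a stop cassette insertion, had 2 libraries, and the other, labelled wild type, also had 2. All 4 came from pooled forelimb and hindlimb tissue on the strain background c57bl6.J X 129S6.sv, dissociated with trypsin and fixed with 1% PFA before transposition. Stop cassettes are used to end transcription early, and comparing the genotypes asks whether open chromatin in the limb differs when one is present. The labels do not say where the cassette was inserted, whether embryos carried 1 or 2 copies, or how many embryos gave each library. Names inside the wild-type lists read R1-1 and R1-2, whereas those of the stop cassette lists read R1 and R2. The wild-type pair may therefore share a source, and p-values measure only the spread between these samples, which may be technical.

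Open chromatin in introns often marks enhancers, stretches of DNA that bind transcription factors and raise transcription from a promoter that can lie far away. In the limb bud, the enhancer that drives Shh lies in an intron of Lmbr1, and elements for Grem1 and for Dlx5 and Dlx6 lie in Fmn1 and in Dync1i1, so the host gene need not be the target. An open intronic region can also be an insulator bound by CTCF or an unannotated promoter. Accessibility alone does not tell these apart.

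The lists held 51701 to 107827 peaks without any read counts, and sequencing depth is therefore unknown. Promoters of 7 to 9 of 10 limb mesenchyme markers were held by each list, Prrx1, Twist1 and Msx1 in all 4 and Tbx5 in none. Of 5 markers per group for other cell types, the lists held 1 to 3 for ectoderm, 2 to 5 for muscle precursors, 2 to 3 for endothelium, 2 to 3 for blood and 2 for nerve and Schwann cells. For liver, a tissue that was not dissected, 0 or 1 of 5 was held, and that promoter was Apob. Promoters of several cell types were thus open, and a region open in fewer cells cannot be told apart from one less open in each cell.

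Sequences around the strongest summits show how different the most accessible of these regions were. The first set gives 200 bases (mm9, plus strand, 5′ to 3′) of 4 of the 5 regions with the highest mean score percentile among those held by all 4 lists, with CpG dinucleotides in capitals. The other one, in Nol4, is named only. CpG-rich DNA is typical of promoters, and 3 of these 4 windows are rich in it, whereas the window in Chl1 is AT-rich.
Filip1l intron, chr16:57391600-57391799: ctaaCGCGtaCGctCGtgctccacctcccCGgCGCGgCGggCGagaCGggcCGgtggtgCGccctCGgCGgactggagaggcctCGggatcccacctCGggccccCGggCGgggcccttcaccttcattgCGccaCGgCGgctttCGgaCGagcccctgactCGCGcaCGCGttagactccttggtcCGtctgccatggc
Itpkb intron, chr1:182295338-182295537: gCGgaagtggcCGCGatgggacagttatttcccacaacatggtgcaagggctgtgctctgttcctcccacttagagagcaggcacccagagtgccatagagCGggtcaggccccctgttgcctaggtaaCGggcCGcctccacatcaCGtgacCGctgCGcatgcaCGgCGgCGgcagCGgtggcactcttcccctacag
Pde4d intron, chr13:110612665-110612864: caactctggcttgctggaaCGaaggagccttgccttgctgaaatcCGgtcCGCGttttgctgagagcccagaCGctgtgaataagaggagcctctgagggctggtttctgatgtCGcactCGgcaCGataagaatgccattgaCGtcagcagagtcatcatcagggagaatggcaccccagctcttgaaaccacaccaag
Chl1 intron, chr6:103599102-103599301: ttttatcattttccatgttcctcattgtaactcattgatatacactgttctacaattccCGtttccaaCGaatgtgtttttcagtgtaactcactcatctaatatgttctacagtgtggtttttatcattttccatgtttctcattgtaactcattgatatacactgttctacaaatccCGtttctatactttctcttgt
The 200 bases in Filip1l held 28 CpG at a GC content of 73.0%, those in Itpkb 13 at 63.5%, those in Pde4d 9 at 54.5% and those in Chl1 3 at 32.5%.

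The second set gives 300 bases (mm9, plus strand, 5′ to 3′) of the strongest region held by all 4 lists in limb patterning genes, because these genes held many intronic distal regions. Capitals mark matches, on either strand, to the short motifs that were searched, apart from the general E-box CANNTG, which most windows hold. In Zbtb16 the match is the Meis motif TGACAG. The windows in Gli2 and Gli3 hold none of these letter strings, which says nothing about which factors bind there.
Zbtb16 intron 2, chr9:48631186-48631485: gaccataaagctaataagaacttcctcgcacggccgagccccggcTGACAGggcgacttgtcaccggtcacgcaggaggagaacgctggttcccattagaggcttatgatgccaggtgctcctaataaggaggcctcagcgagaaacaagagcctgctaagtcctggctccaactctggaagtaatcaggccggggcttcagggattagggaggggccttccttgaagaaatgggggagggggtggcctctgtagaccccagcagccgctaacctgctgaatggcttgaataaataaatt
Gli2 intron 2, chr1:120798846-120799145: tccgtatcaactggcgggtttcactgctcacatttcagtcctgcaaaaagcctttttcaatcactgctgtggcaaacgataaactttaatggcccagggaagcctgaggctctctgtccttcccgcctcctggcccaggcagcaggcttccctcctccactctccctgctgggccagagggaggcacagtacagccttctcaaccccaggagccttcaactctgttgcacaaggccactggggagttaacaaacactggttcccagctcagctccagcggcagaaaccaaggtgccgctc
Gli3 intron 2, chr13:15636146-15636445: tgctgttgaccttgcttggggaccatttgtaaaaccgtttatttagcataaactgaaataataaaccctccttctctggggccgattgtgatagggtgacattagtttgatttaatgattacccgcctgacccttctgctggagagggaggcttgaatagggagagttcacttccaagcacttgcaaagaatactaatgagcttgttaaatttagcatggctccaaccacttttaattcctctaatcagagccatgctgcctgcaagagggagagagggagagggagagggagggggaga

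Most intronic distal regions were seen in few lists. The stop cassette lists held 6066 of them in replicate 1 and 10264 in replicate 2, and the wild-type lists held 3375 and 5260. All 4 lists held 2015 (16.2%), beside 32% of all merged regions, 21.4% of the intergenic distal regions and 71.5% of the regions within 1 kb of a start. A single list held 5769 (46.3%), against 41.6% for intergenic distal regions. The longest list, stop cassette replicate 2, alone accounted for 3734 of these, and the 3 others for 1224 (stop cassette replicate 1), 576 (wild-type replicate 2) and 235 (wild-type replicate 1). Members seen in 1 list ranked low, with a median mean percentile of 21.6, against 58.1 for members in all 4. Without wild-type replicate 1, the shortest list, the count held by every remaining list was 3046. Every list was also reduced to the length of the shortest by score, and the lists were merged and classified anew. This gave 7268 members, of which all 4 lists held 1327 (18.3%), beside 38.3% of all regions.

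**Figure D1:**
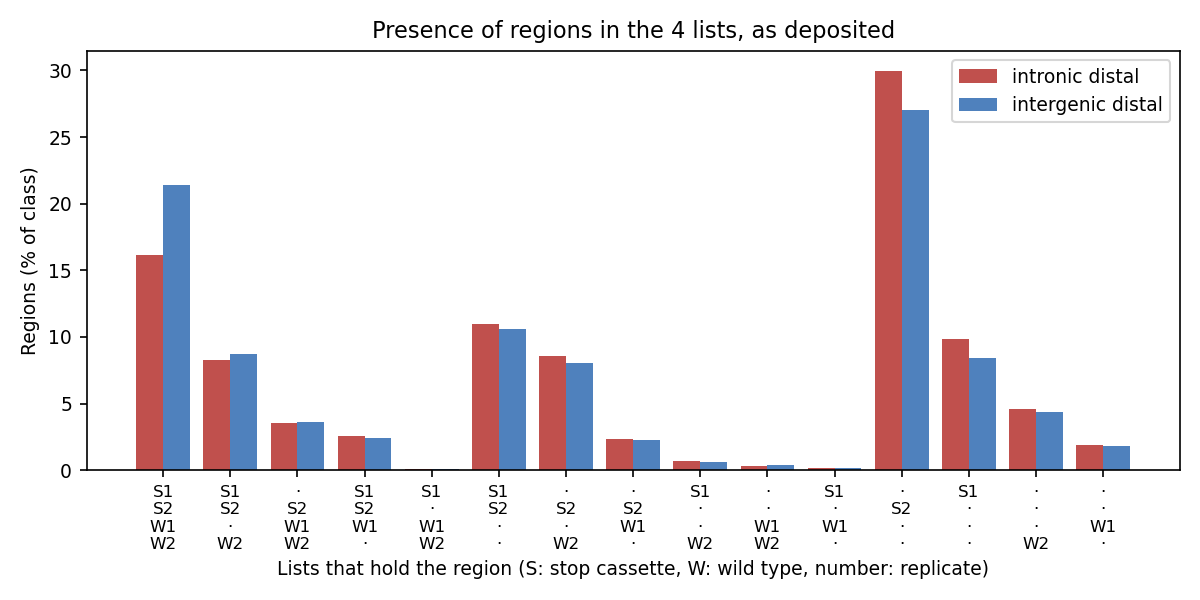
Share of regions (percent of the class, vertical axis) by the exact set of lists that hold them (S stop cassette, W wild type, number the replicate), for 12454 intronic distal and 16414 intergenic distal regions. The set with all 4 lists is lower for intronic distal regions (16.2% against 21.4%), and the set with stop cassette replicate 2 alone is the largest in both classes.

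Pairs of lists overlapped incompletely in these regions. The 2 stop cassette lists shared 4726 members, which is 77.9% of replicate 1 and 46.0% of replicate 2, and the 2 wild-type lists shared 2507, which is 74.3% of replicate 1 and 47.7% of replicate 2. At equal list length, the Jaccard index (members held by both lists divided by those held by either) was 0.411 for the stop cassette pair and 0.427 for the wild-type pair. Across genotypes, stop cassette replicate 2 reached 0.463 with wild-type replicate 2 and 0.439 with wild-type replicate 1, while stop cassette replicate 1 reached 0.337 and 0.330. Lists of the same genotype were therefore not the most alike at equal length, and stop cassette replicate 1 had the lowest values with both wild-type lists.

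Accessibility scores of intronic distal regions were low within every list. The score, −log10 of a q-value as far as the lists show, was turned into a percentile of its own list, with 100 for the strongest peak, because scores of libraries of unknown depth cannot be compared directly. The median percentile was 36.8 and 45.8 in the stop cassette lists and 31.7 and 36.9 in the wild-type lists. Regions within 1 kb of a start had medians between 82.0 and 88.5, and intergenic distal regions had medians of 46.9, 49.8, 42.3 and 48.1 in the same order of lists. Intronic distal regions were lower than intergenic ones in all 4 lists, with differences of −10.1, −3.99, −10.6 and −11.2 percentile points (mean difference −8.97, SD 3.35, n = 4). An exact two-sided sign-flip permutation test over the 4 libraries gave p = 0.125, the smallest value it allows, and the Benjamini-Hochberg value over 3 such tests was also 0.125. Any list shared 29.9% to 90.9% of its members with each other list, so the 4 differences are not fully independent.

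Few members reached the top of a list. In the stop cassette lists 182 (3.00%) and 247 (2.41%) of the members held lay above the 90th percentile, and in the wild-type lists 36 (1.07%) and 57 (1.08%). For intergenic distal regions the shares were 4.18% and 4.47% against 2.78% and 3.07%, so the genotypes were split there too. Members below the 50th percentile made up 56.5% to 69.9% of those held. Weak peaks often share a score, and 27.8% to 44.2% of the members sat at the 4 most common scores of their list, which makes percentiles in that range coarse.

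**Figure D2:**
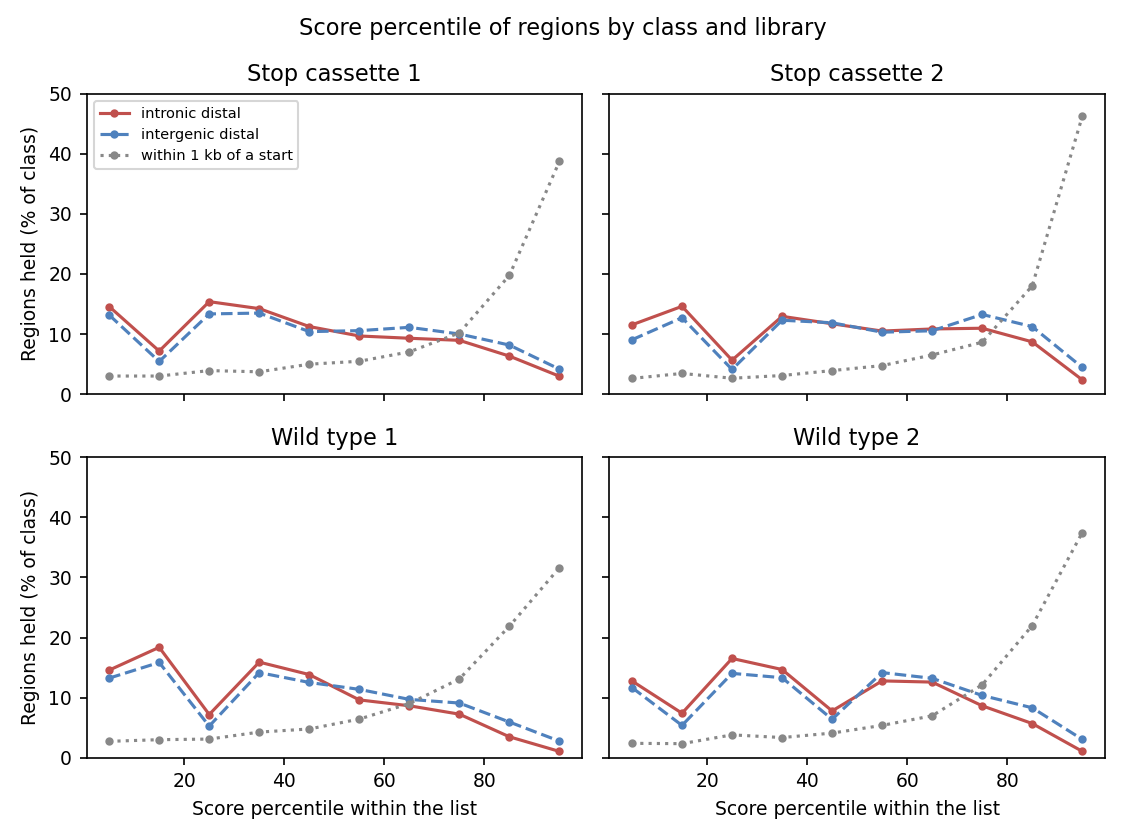
Percent of the regions a list holds (vertical axis) in each band of 10 score percentiles (horizontal axis), for 3 classes of region in each of the 4 libraries. Regions within 1 kb of a start crowd the top band, whereas intronic distal regions peak below the 50th percentile and fall under the intergenic distal line in the top band of every library.

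Per Mb of eligible sequence, intronic distal regions were denser than intergenic ones in each list, though not among regions held by all 4 lists. Eligible intron, meaning non-exonic gene sequence more than 10 kb and at most 100 kb from any start, covered 453.0 Mb and held 27.5 regions per Mb, and eligible intergenic sequence covered 764.5 Mb and held 21.5 per Mb. Per list, intronic density was 13.4 and 22.7 per Mb in the stop cassette libraries and 7.45 and 11.6 in the wild-type libraries. Intergenic density was 11.3, 18.1, 6.92 and 10.1 in the same order. The intronic value was the higher of the pair in 4 of 4 lists (mean difference 2.18 per Mb, SD 1.74, exact two-sided sign-flip permutation p = 0.125, adjusted 0.125). The ratio of intronic to intergenic density was 1.19 and 1.25 in the stop cassette lists and 1.08 and 1.145 in the wild-type lists. All 4 lists held 2015 regions in eligible intron and 3517 in eligible intergenic sequence, which is slightly fewer per Mb in introns. Bases of unknown sequence or without a unique match were not removed from either total. Introns thus held more regions per Mb in each list, with lower median ranks.

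Density declined with distance from the start. Intronic distal regions numbered 4268 at 10 to 20 kb (29.4 per Mb), 5369 at 20 to 50 kb (27.6 per Mb) and 2817 at 50 to 100 kb (24.8 per Mb). Intergenic density over the same bands was 25.8, 22.0 and 17.8 per Mb. The share held by all 4 lists was nearly flat inside introns, at 16.8%, 15.6% and 16.4%. Values on either side of the limits of the definition were close. Regions at 9 to 10 kb were held by all 4 lists in 15.6% of cases and those at 10 to 11 kb in 16.1%, and the shares were 14.3% at 90 to 100 kb and 13.4% at 100 to 110 kb. The members nearest to the limits lay 10001 and 99984 bp from a start, and the nearest excluded regions 10000 and 100003 bp.

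**Figure D3:**
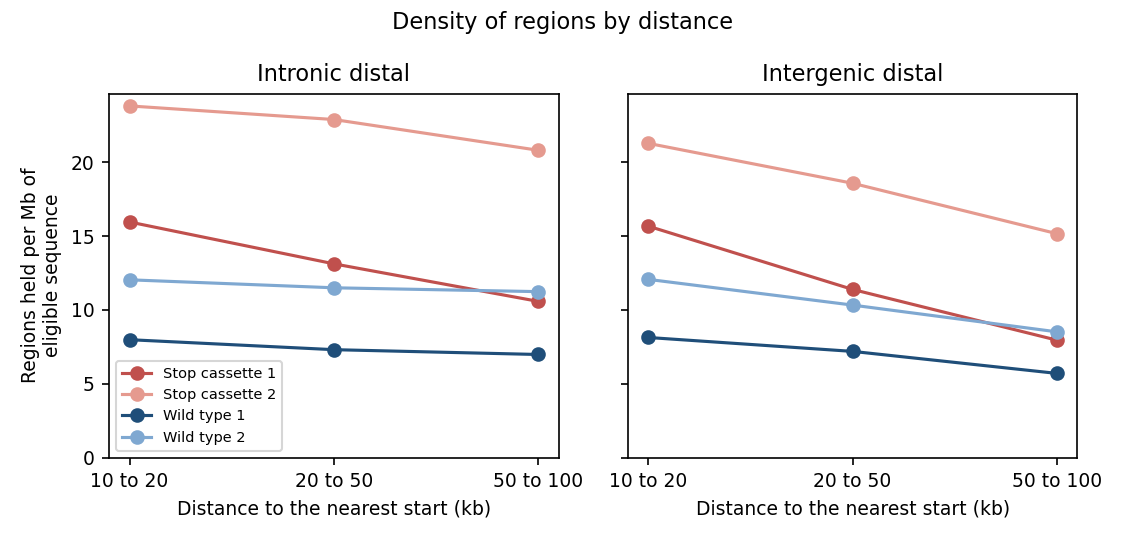
Regions held per Mb of eligible sequence (vertical axis) in 3 bands of distance to the nearest transcript start (kb, horizontal axis), 1 line per library. In stop cassette replicate 1, intronic density goes from 16.0 to 10.6 per Mb, and in wild-type replicate 1 from 7.99 to 6.99 per Mb.

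Members were narrow, and most had no other member within 5 kb. Their median width was 519 bp, against 537 bp for intergenic distal regions and 1086 bp within 1 kb of a start, and 7.94% were wider than 1 kb, with a maximum of 2362 bp. Another intronic distal region lay within 5 kb of 33.0% of members, and regions of other classes were not counted here. The start nearest to a member belonged to its host gene in 7999 cases (64.2%), and 172 members lay in more than 1 protein-coding gene. The first intron held 26.96% of the pairs of region and gene and made up 24.7% of the eligible sequence.

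Intronic distal regions were spread over 3933 of 9589 protein-coding genes with eligible intron (41.0%). Of these genes 1641 had 1 region and 229 had at least 10, and the 100 genes with the most regions held 15.02% of all pairs of region and gene. Gm20388 came first with 122 regions, but its model spans 4435 kb, holds 72 other protein-coding genes, and shares 37 of those regions with another gene. Fgfr2, a receptor for fibroblast growth factors, followed a similar pattern: 39 regions in a model of 3009 kb that holds 31 other genes. Arfip1, which encodes a partner of small GTPases, had 26 regions in a model that holds 5 other genes. Such counts describe the annotated model more than a single gene.

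The other 9 of the 12 genes with the most regions were long genes that hold 0 to 2 other genes. Macrod2, an ADP-ribosylhydrolase gene, had 43 regions (30.8 per Mb of eligible intron), of which stop cassette replicates 1 and 2 held 11 and 39 and wild-type replicates 1 and 2 held 11 and 23. Pde4d, a cAMP phosphodiesterase, had 36 (36.8 per Mb), held 19, 27, 12 and 17 times in the same order, with 9 in all 4 lists. The teneurin genes Odz4 and Odz2 had 30 and 28 regions, and the lists held 15, 27, 11 and 17 of the former and 3, 25, 5 and 12 of the latter, so that the longest list held 25 of the 28 in Odz2. Nrxn3, which encodes a synaptic adhesion protein, had 30, and Slit3, a secreted guidance cue, had 28. Kcnip1, a potassium channel partner, had 23.

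Sox5, a developmental regulator and partner of Sox9 in cartilage formation, had 26 regions in 705 kb of eligible intron (36.9 per Mb), of which 6 were in all 4 lists. The stop cassette lists held 11 and 22 of them and the wild-type lists 9 and 17. The genotypes overlapped, and the highest number was that of stop cassette replicate 2, whose list was the longest.

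Ranking by density instead of number brought up shorter genes. Among the 229 genes with at least 10 regions the median density was 59.3 per Mb. The highest were Ell2, a transcription elongation factor, with 10 regions in 38.0 kb (263.2 per Mb), and Zfpm1, a GATA cofactor, with 10 regions in 38.9 kb (257.4 per Mb), all 10 also inside Gm20388. Frs2, the adaptor that links FGF receptors to downstream kinases, had 171.0 per Mb. Ccdc88c had 155.8 per Mb and 5 of its 10 regions in all 4 lists. Rhbdd1, a rhomboid protease, and Vit, an extracellular matrix protein, each had 147.9 per Mb. Of the regions in Ell2, 9 and 5 were in the stop cassette lists and 1 and 4 in the wild-type lists. The numbers were 9 and 9 against 2 and 3 in Frs2, and 9 and 9 against 4 and 3 in Zfpm1. They were 7 and 9 against 2 and 4 in Rhbdd1, and 7 and 9 against 4 and 2 in Vit. In Ccdc88c, 9 and 7 against 5 and 7, the genotypes overlapped. Of all members the lists held 48.7% and 82.4% against 27.1% and 42.2%, and of all merged regions 61.1% and 85.6% against 41.1% and 53.9%.

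**Figure D4:**
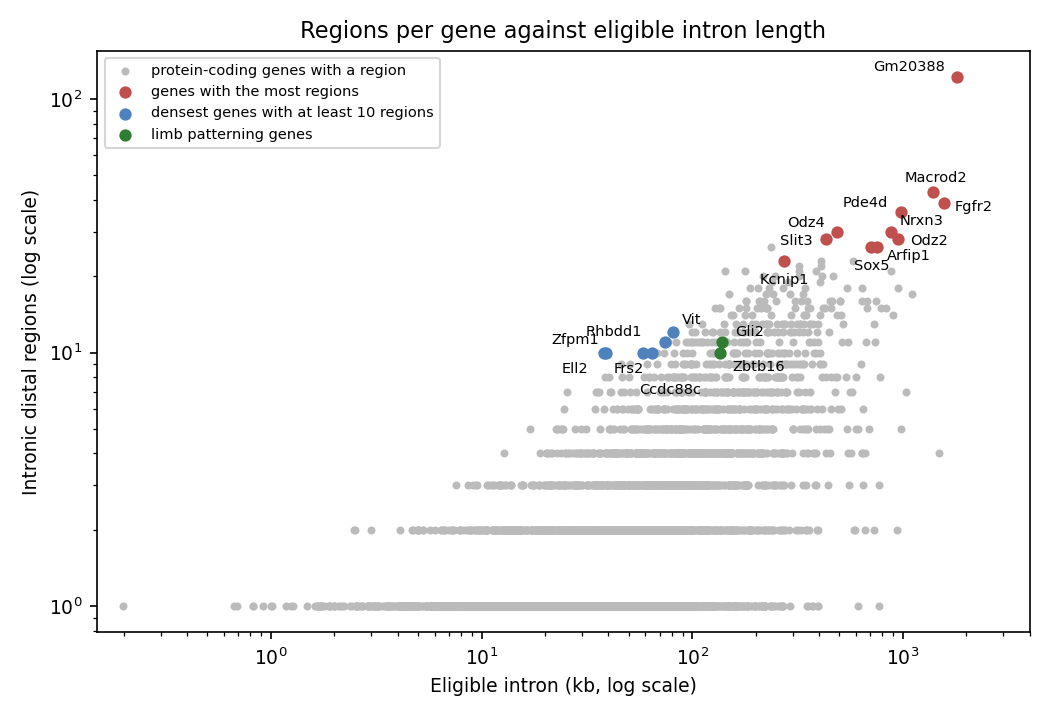
Intronic distal regions per protein-coding gene (vertical axis, log scale) against the gene's eligible intron (kb, horizontal axis, log scale), for the 3933 genes with at least 1 region. Red, blue and green mark genes with the most regions, the densest genes with at least 10 regions, and the limb patterning genes Gli2 and Zbtb16. Counts rise with eligible length, and the densest genes, such as Ell2 with 10 regions in 38.0 kb, lie to the left of genes with a like count.

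Gene lists by role were compared by their density, beside 27.5 regions per Mb over all 9589 protein-coding genes (13.4, 22.7, 7.46 and 11.6 per Mb in stop cassette replicates 1 and 2 and wild-type replicates 1 and 2). Of 22 limb patterning genes with eligible intron, 15 had a region, beside 41.0% of all genes. With 20 to 100 kb of eligible intron it was 7 of 9, beside 59.9%, and with 100 to 300 kb 6 of 7, beside 89.5%. The limb patterning list held 93 regions in 1.55 Mb, or 59.99 per Mb. In the same order of lists the density was 28.4, 51.6, 19.4 and 28.4 per Mb, so the limb genes lay above all genes in each of the 4 libraries. The ratio to all genes was 2.18 over the merged regions, and per library it was 2.12 and 2.275 in the stop cassette lists and 2.59 and 2.45 in the wild-type lists (mean 2.36 ± 0.207, SD, n = 4). Among genes with 100 to 300 kb of eligible intron it was 65.9 per Mb for 7 limb genes against 28.9 for all 978, and at 20 to 100 kb it was 46.5 per Mb for 9 against 29.7. Of the 93 regions, 20 (21.5%) were in all 4 lists, beside 16.2% of all members. Limb patterning genes were not alone in their higher density. Limb enhancer hosts, cartilage and bone, Wnt, BMP and FGF signalling, endothelial and blood genes also lay above all genes in each library. Over the merged regions, blood genes (67.9 per Mb) and nerve and Schwann genes (69.45 per Mb), with 5 eligible genes each, were denser than limb patterning genes. This order held in both stop cassette lists but not throughout the wild type. Nerve and Schwann genes had 11.6 per Mb in each wild-type list, below limb patterning genes in both. Blood genes had 27.8 and 24.7 per Mb in wild-type replicates 1 and 2, above limb patterning genes in replicate 1 and below in replicate 2.

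Within the limb patterning list effectors of Hedgehog signalling and TALE homeodomain factors held many regions. Gli2 had 11 regions (79.2 per Mb) and Gli3 7 (79.0 per Mb), and Ptch1, the Hedgehog receptor, had 1. Of the TALE factors, Meis2 had 8, Meis1 7 and Pbx3 5, and none of the 8 in Meis2 was in all 4 lists. Zbtb16, a zinc finger repressor that patterns the skeleton, had 10 (73.8 per Mb), and Lmx1b, which specifies dorsal limb identity, had 6 (109.3 per Mb). Fgf10, the mesenchymal growth factor of the limb bud, had 3. The 7 genes with no region included the ephrin receptors Epha4 and Epha7, with 88.5 and 109.6 kb of eligible intron, and Prrx1 with 15.5 kb.

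Genes known to host limb enhancers of their neighbours held 25 regions (45.9 per Mb). Fmn1 had 13, of which stop cassette replicates 1 and 2 held 3 and 13 and wild-type replicates 1 and 2 held 7 and 10. Dync1i1 had 8, held 2, 6, 2 and 4 times, with none in all 4 lists. Lmbr1 had 4, and its strongest in all 4 lists had a mean percentile of 24.6. Stop cassette replicate 1 held fewer regions than wild-type replicate 1 in Fmn1, the opposite of the order of their list lengths.

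Cartilage and bone genes held 118 regions (40.6 per Mb). At least 1 region was found in 16 of 17, beside 41.0% of all genes, 59.9% of genes with 20 to 100 kb of eligible intron and 89.5% of genes with 100 to 300 kb. After Sox5 came Ext1, which makes heparan sulphate, with 17 (76.3 per Mb), and Bmpr1b, a BMP receptor of digit cartilage, with 12 (44.3 per Mb). Ror2, a Wnt5a receptor, had 10 (111.1 per Mb). Genes of Wnt, BMP and FGF signalling held 130 regions (43.2 per Mb), 39 of them in the long Fgfr2 model. Their nuclear Wnt effectors Tcf7l2, Tcf7l1 and Lef1 had 21, 11 and 8 regions (147.0, 99.0 and 87.0 per Mb), and Tcf7 had none, in 2.73 kb. The receptor genes Bmpr1a and Tgfbr1 had none, in 50.3 and 23.7 kb.

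Lists for other cell types of the limb were small. Muscle precursor genes had 17 regions (27.9 per Mb), with 5 in Pax3, 4 in Gab1 and 3 in Pax7, and 1 of the 17 was in all 4 lists. Endothelial genes had 25 (34.7 per Mb), with 5 each in the ETS factors Ets1 and Fli1 and 4 in Erg. Blood genes had 22 (67.9 per Mb) in 4 genes, 9 in Runx1, 6 in Ikzf1, 4 in Cbfa2t3, which lies inside Gm20388, and 3 in Ptprc. Density over the blood list was 52.5 and 55.5 per Mb in the stop cassette lists and 27.8 and 24.7 in the wild-type lists. Ectoderm genes had 30 (32.7 per Mb), mostly in Pard3 with 13 and Bnc2 with 12. Nerve and Schwann genes had 12 (69.45 per Mb). Of these, 11 lay in Zeb2, and the stop cassette lists held 8 each while the wild-type lists held 2 each. Liver genes had 4, with 3 in Cps1 and 1 in Afp. Blood and nerve densities did not overlap between genotypes, as was also true of all genes, and what part cell mixture or list length had in this was not tested.

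Long genes of the nervous system gave the lowest density, 16.4 per Mb from 242 regions in 14.8 Mb. Of the 25 genes 23 had a region, and among all genes with over 300 kb of eligible intron 96.4% had one. Within the list, Nrxn3, Dscam, Macrod2, Ntm and Rbfox1 lay above the density of all genes (34.2 to 27.8 per Mb), and Csmd1, a complement regulator, had 1 region in 769 kb. Grm7, a glutamate receptor, had none in 311.9 kb. Over the 100 genes of any kind with the longest eligible intron, the median density was 16.6 per Mb, and 13 genes fell below 5 per Mb while 8 exceeded 40. Il1rapl1 had none in 564.9 kb and Dmd, the dystrophin gene, 4 in 1481 kb. Genes of like length thus differed widely in density.

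**Figure D5:**
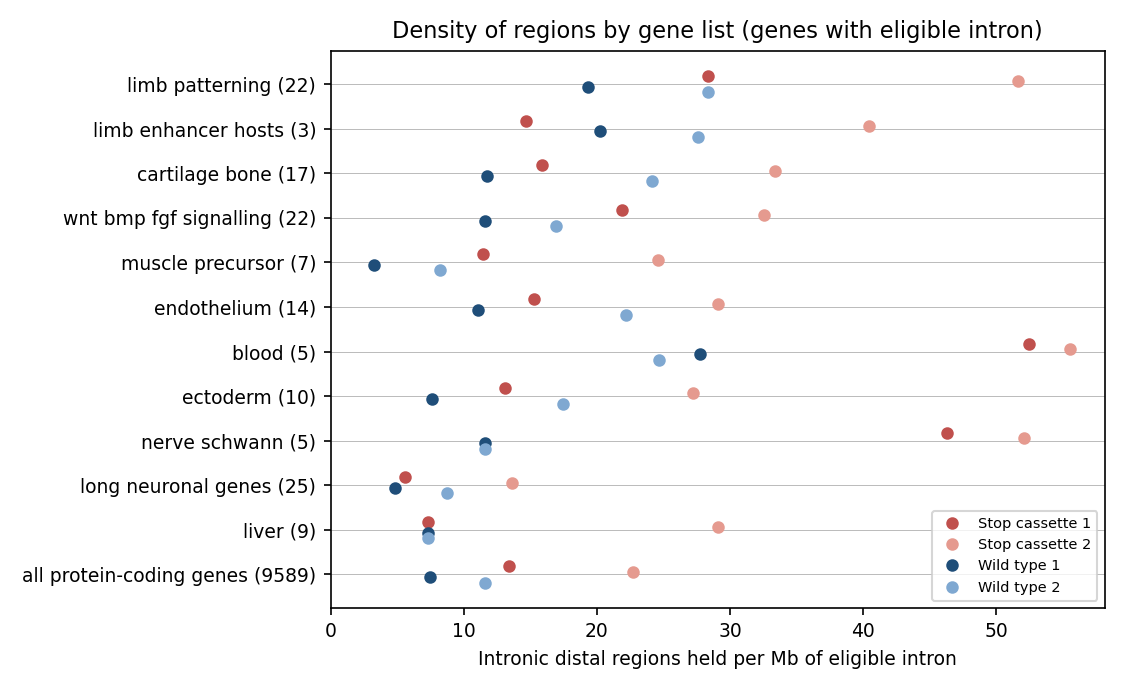
Intronic distal regions held per Mb of eligible intron (horizontal axis) for 11 gene lists and all protein-coding genes, with the number of genes in parentheses and 1 point per library, set apart vertically. Limb patterning genes lie to the right of all genes in each of the 4 libraries, and long neuronal genes lie to the left. Limb enhancer hosts, cartilage and bone, Wnt, BMP and FGF signalling, endothelium and blood genes also lie to the right in each library.

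In sequence, members were poorer in GC than other accessible regions. In a window of 250 bp on each side of the strongest summit the median GC content was 46.3%, against 47.1% for intergenic distal regions and 60.9% within 1 kb of a start, and the median number of CpG was 6, 6 and 33. Within each list the intronic median was the lower (47.1, 46.5, 47.3 and 47.3% against 48.1, 47.3, 48.7 and 48.1%). The mean difference was −0.998 percentage points (SD 0.282, n = 4, exact two-sided sign-flip permutation p = 0.125, adjusted 0.125). Members in all 4 lists had a median of 48.1% and members in 1 list 45.5%, so members found in every list were richer in GC.

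Most motifs for developmental factors were more common in members than near starts, and close to their share in intergenic distal regions. A GATA motif (AGATAA) was in 25.6% of member windows, 24.1% of intergenic, 10.96% of windows within 1 kb of a start and 21.4% of all regions. The homeodomain core TAATTA was in 18.1%, 17.2%, 4.598% and 13.5% in the same order. For the Twist E-box CAGATG, a special case of the general E-box CANNTG that was in 94.8% of members, the shares were 41.3%, 40.1%, 21.0% and 35.4%. The Sox motif ACAAAG was in 38.7% of members and the AP-1 motif TGANTCA in 15.8%, beside 33.8% and 13.7% of all regions. Motifs for Meis (TGACAG), the letters found in the Zbtb16 window, and for NFI (TTGGCA) were in 32.98% and 25.02% of members and in 29.9% and 22.8% of all regions.

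The CTCF core AGGGGGC and the ETS motif CCGGAAGT had lower shares in members than near starts. Members held the CTCF core in 10.5% of windows, against 11.9% of intergenic, 22.2% of start and 14.3% of all windows. The ETS shares were 0.434%, 0.804%, 6.18% and 2.08%, and the Gli shares 0.482%, 0.609%, 0.502% and 0.499%. From the 3296 members of lowest to the 3114 members of highest mean percentile, the GATA share went from 23.97% to 29.4% and the CTCF share from 8.74% to 11.7%, while the homeodomain share went from 19.1% to 15.4%. The other motifs searched were TEAD (GGAATG), the myogenic E-box (CAGCTG, also a case of CANNTG), forkhead (TGTTTAC), Pbx-Hox (TGATTNAT) and Runx (TGTGGT). Their shares were 28.8%, 32.5%, 8.67%, 7.81% and 33.2% of members, and 25.7%, 31.1%, 7.26%, 6.27% and 29.4% of all regions. A match is a description of letters, counted on both strands, and these shares move with GC content, whose part was not tested.

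The 5 regions with the highest mean percentile in all 4 lists lay in Filip1l, Nol4, Chl1, Itpkb and Pde4d. In Filip1l, named for its likeness to a filamin-binding protein, the region at chr16:57391026-57391950 lay in an intron of both Filip1l and 2610528E23Rik, 37886 bp downstream of a Filip1l start. Its percentile was 99.9 and 100 in the stop cassette lists and 100 in both wild-type lists, so it was among the strongest peaks of every library. In Nol4, a region in intron 1 had 98.5 and 99.5 against 99.6 and 99.7. In Chl1, a neural adhesion gene, the region at chr6:103598952-103599463 in intron 4 had 95.6 and 97.6 in the stop cassette lists and 99.97 and 99.8 in the wild-type lists, with both wild-type values the higher. In Itpkb, an inositol phosphate kinase, the region at chr1:182295143-182296018 in intron 2 had 99.7 and 97.8 against 98.5 and 95.8. In Pde4d, the region at chr13:110612231-110613583 in intron 7 had 98.4 and 98.6 against 96.8 and 95.6, and here both stop cassette values were the higher.

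Copies elsewhere in the genome and unannotated starts were looked for in these regions. The median 32-base stretch around the summit occurred 3 times in the genome in Filip1l and 4 times in Chl1, and once in Nol4, Itpkb and Pde4d. What part repeated sequence had in the ranks of the Filip1l and Chl1 regions was not tested. Over all members, 81 (0.650%) had a median of at least 2 copies. A RefSeq transcript start (GRCm38.p6, matched by the central 60 bases of its promoter) lay inside 104 members (0.835%), and these had a median mean percentile of 51.3, against 34.7 for all members. Of the 20 strongest members in all 4 lists, 13 held at least 10 CpG and none a RefSeq start. Leaving out members with a RefSeq start changed the median percentile from 45.8 to 45.6 in stop cassette replicate 2 and not at all in the other 3 lists. Such starts lay inside 481 intergenic distal regions (2.93%). Among regions in all 4 lists they lay in 253 intergenic ones (7.19%) and 42 intronic ones (2.08%). Intergenic regions with a start were not left out, so the part of these starts in the intronic minus intergenic differences was not tested.

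The printed limb regions varied in rank between lists. In Gli2, chr1:120798542-120799255 in intron 2 had percentiles of 55.7 and 87.4 in the stop cassette lists against 61.5 and 80.0 in the wild-type lists, and in Zbtb16, chr9:48630639-48631822 in intron 2 had 60.8 and 81.9 against 53.0 and 66.0, so that the genotypes overlapped in both. The Gli3 region, chr13:15635805-15636647 in intron 2, had 13.3 and 69.0 against 68.6 and 44.8. Its weak value in stop cassette replicate 1 fell out at equal list length, where the other 3 lists kept it.

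Between genotypes, stop cassette lists held a larger part of the intronic distal regions, and their lists were also the longer ones. Of all members, the stop cassette lists held 48.7% and 82.4% and the wild-type lists 27.1% and 42.2% (means 65.6 ± 23.8 and 34.7 ± 10.7, SD, n = 2 each, exact two-sided permutation p = 0.333, adjusted 0.833 over 5 tests). Over all merged regions the same shares were 61.1% and 85.6% against 41.1% and 53.9%. With 2 libraries against 2, 0.333 is the smallest p possible. Of the regions that each list held, intronic distal ones made up 13.3% (95% Wilson interval 13.0 to 13.6) and 16.1% (15.8 to 16.4) in the stop cassette libraries. In the wild-type libraries they made up 10.99% (10.7 to 11.4) and 13.1% (12.7 to 13.4). The means were 14.7 ± 1.96 and 12.03 ± 1.47 (SD, n = 2 each, exact permutation p = 0.333, adjusted 0.833), and the intervals of stop cassette replicate 1 and wild-type replicate 2 overlapped. At equal list length the shares were 10.8% and 11.9% against 11% and 11.2%, a difference of 0.257 percentage points (exact permutation p = 1, adjusted 1), and the groups overlapped. Intervals cover counting error only.

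Median percentiles also did not separate the genotypes. The stop cassette mean was 41.3 ± 6.36 and the wild-type mean 34.3 ± 3.69 (SD, n = 2 each), a difference of 6.98 with an exact two-sided permutation p of 0.667 (adjusted 0.833). Stop cassette replicate 1, at 36.8, lay just under wild-type replicate 2, at 36.9. At equal length the difference was 2.99 (exact permutation p = 0.667, adjusted 0.833). Without stop cassette replicate 2 the difference as deposited was 2.49, and without stop cassette replicate 1 it was 11.47. None of these tests could reach 0.05, and they do not show that the genotypes are alike.

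Members seen in both lists of 1 genotype and neither of the other were unequal in number. Both stop cassette lists alone held 1368 (10.98%), beside 10% of all merged regions, and both wild-type lists alone held 39 (0.313%), beside 0.313% of all merged regions. At equal length the counts were 429 (5.90%), beside 5.22%, and 212 (2.92%), beside 2.24%. The ratio of stop cassette to wild-type counts was thus 35.1 as deposited and 2.02 at equal length, and over all merged regions 31.98 and 2.33. Of the 1368, 311 (22.7%) remained stop cassette specific at equal length, and of the 39, 18 (46.2%) remained wild type specific. Leaving out a library changed these counts, in part because its genotype was then counted from its 1 remaining list. The first was 5166 when stop cassette replicate 1 was left out, 2651 when stop cassette replicate 2 was, and 2412 when wild-type replicate 2 was. The second was 483 when stop cassette replicate 2 was left out, 620 when wild-type replicate 1 was, and 275 when wild-type replicate 2 was.

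Named examples were the 3 specific regions of highest mean percentile in each genotype that remained specific at equal length. Since they were chosen for their presence and rank, their values are a description. In Nploc4, a cofactor of the p97 ATPase, chr11:120267088-120267667 in intron 11 had percentiles of 90.4 and 89.9 in the stop cassette lists. Wild-type summits lay no nearer than 27112 and 26921 bp. In Shroom2, an actin-binding protein gene, chrX:149172704-149173206 in intron 1 had 92.3 and 85.8, with wild-type summits no nearer than 30572 bp. In Megf11, a cell surface protein gene, chr9:64438250-64439595 in intron 5 had 88.1 and 87.4, with wild-type summits no nearer than 21676 bp. The wild-type examples ranked lower. In Serpini1, the neuroserpin gene, chr3:75437101-75437625 in intron 6 had 25.8 and 62.1, and stop cassette summits lay 2474 and 1663 bp away. In Mad1l1, a spindle checkpoint gene, chr5:140518853-140519480 in intron 17 had 46.6 and 32.1, and in Fam19a2 chr10:122839458-122839973 in intron 1 had 31.7 and 46.5. With no read counts, reads below the calling threshold at these sites were not measured.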

How the data were processed

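Tn5-transposed DNA of 4 libraries was aligned with Bowtie2 2.2.6 to mm9 and handled with Picard, per the submitters' processing notes. Per the peak names in the deposited lists, duplicates and mitochondrial reads were removed and a mapping quality of 30 was used. The peak caller, its settings and any Tn5 read shift are not given in the sources used here. The authors deposited 1 list per library of 1 bp summits with a score. The deposited score was read as −log10 of a q-value, because its lowest value in each list is 1.30 to 1.31, which matches a q-value of 0.05. Peaks were called per library. No counts were given, so depth is unknown and no read-level test was possible.

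Scores were ranked within a list, and the highest summit of a list stood for a region. Annotation was GENCODE M1 on NCBIM37, the same build. Of the peaks, 89 to 110 per list lay on unplaced sequences and have no annotation here. Genotypes were compared by exact permutation over libraries, and classes within a library by exact sign-flip tests, in Python 3.11.15 with numpy 2.4.6, pandas 2.3.3 and scipy 1.17.1. Merging of summits, classes and presence per list were checked on simulated lists, and the permutation and sign-flip tests were not. Named genes are the 12 with the most regions, the 6 densest with at least 10 regions and the 3 with the most in each list. Named regions are the 5 of highest mean percentile in all 4 lists, 3 specific to each genotype, and the strongest in all 4 lists of the 5 limb patterning genes with the most regions. Meis2, among those 5, had none in all 4 lists. Some items that this rule covers are not reported here. Other genes of a list were named after their values were seen.

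Alternatives were equal list length (51701 peaks), scores above the pooled median of 5.83, narrower and wider extensions of the summits, autosomes, starts of protein-coding genes only, whole regions inside the gene body, each library left out, replicate numbers as pairs, and windows of 301 bp. Members and gene lists were chosen with earlier results of these data known. Chosen after these values were seen were leaving out gene models that hold 3 or more genes, the search for copies and RefSeq starts, the description of the 20 strongest members, the comparison by eligible length, the 100 longest genes and the printed windows.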

Additional observations from a re-analysis of the deposited data

How the results depend on the processing

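Differences between genotypes, the difference from intergenic distal regions, and the GC difference kept their direction and their side of the threshold under all alternatives run, although none of their tests could pass 0.05. The limb density ratio, which has no test, stayed above 1. The genotype difference in share ranged from 0.257 to 4.03 percentage points (leaving out 1 library each, 1.222 to 4.002), and that in median percentile from 2.486 to 11.47, both ends from leaving out a library. The intronic minus intergenic percentile ranged from −11.3 to −5.28 and the limb density ratio from 2.05 to 2.26. The GC difference went from −0.998 to −1.72 percentage points with starts of protein-coding genes only and to −1.497 with scores above the pooled median, and its smallest size was −0.831, in the narrower windows. Counts moved with the lists. At equal list length, stop cassette-specific members went from 1368 to 429, wild type-specific from 39 to 212, members in all 4 lists from 2015 to 1327 and all members from 12454 to 7268. With scores above the pooled median they were 906, 8, 550 and 5701. Leaving out 1 library each gave 1693 to 5166, 52 to 620, 2041 to 3046 and 8873 to 12255. Fewer peaks or lists enter by construction. Of the 12 genes with the most regions, 7 remained among the first 12 with scores above the pooled median, 7 with starts of protein-coding genes only, 8 at equal length and 9 to 11 without 1 library, and the cause was not tested beyond the smaller lists. With the replicate number as a block, the differences stay 2.65 and 6.98 by construction and the exact sign-flip permutation p was 0.5 for each, the smallest that 2 pairs allow. Deviations of same-numbered libraries from their group means correlated at 0.126 over 2015 members, and 2 pairs do not establish a pairing. Depth is unknown and limits every absence: a region missing from a list may lie just below the calling threshold.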
